A study of Mus musculus with 18 samples.

Results

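The genes of the mitochondrial respiratory chain were followed through astrocyte differentiation of 3 adherent mouse neural stem cell (NSC) lines. Members were all protein-coding mouse genes whose symbols begin with Nduf followed by a, b, c, s or v, with Uqcr, with Cox4 to Cox8, or with Atp5, together with Sdha, Sdhb, Sdhc and Sdhd. The annotation held 94 such genes, of which 92 were among the 27997 genes of the expression table and 88 were expressed highly enough to be tested. The remaining 4 (Cox4i2, Cox6a2, Cox7a1 and Cox7b2, all tissue-restricted forms of cytochrome c oxidase subunits) stayed below the expression filter, and Cox8c and a second entry for Atp5o were not analysed here. The 92 genes comprised 36 subunits of complex I, 8 complex I assembly factors (Ndufaf1 to Ndufaf8), 4 subunits of complex II, 8 of complex III, 19 of complex IV and 17 of complex V. Of the tested genes, 76 encode common subunits; the other tested genes are the assembly factors, tissue-restricted forms and factor B.

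The 18 RNA-seq libraries fell into 6 groups of 3. The tdTomato line (genotype DNGR-1 +/- Tom+/-) and the EYFP line (DNGR-1 +/- EYFP+/-) were DNGR-1 lineage-traced cells: Cre under control of Clec9a, the gene for the dendritic cell receptor DNGR-1, had switched on a ROSA LSL reporter, and the fluorescent cells had been sorted from spinal cord neurospheres. The hippocampal line (DNGR-1+/+) came from mice described by the submitters as carrying GlastCre, a floxed Huwe1 and a ROSA LSL EYFP reporter. In each line, NSCs kept in EGF, bFGF and laminin were collected on day 4, and astrocytes, induced with BMP4 at 20 ng/ml, on day 6. For the astrocytes, the study's methods describe basal medium with BMP4 in place of NSC medium and list no EGF, bFGF or laminin. BMP4, the change of medium and the day of collection therefore cannot be told apart. The 3 libraries of a group came from passages 10 to 12 of the same line, so the p-values below measure only the spread between these cultures. Hippocampus was represented by 1 line, so that tissue, genotype, tracing and the line itself cannot be told apart. Both the EYFP line and the hippocampal line came from mice with a ROSA LSL EYFP reporter.

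Complexes I to IV pass electrons from NADH and succinate to oxygen within the inner mitochondrial membrane. Complexes I, III and IV pump protons across it, and complex V (ATP synthase) uses the resulting gradient to make ATP. Nearly all of their subunits are encoded in the nucleus, but 13 core subunits are encoded by mitochondrial DNA, so that each complex except complex II is assembled from the products of both genomes. Brain astrocytes are known for a strong reliance on glycolysis, although they also have respiring mitochondria.

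Values are log2 normalised expression as deposited, and a change is the astrocyte mean minus the NSC mean of a line on that scale. Because values of weakly expressed genes appear drawn toward their mean across libraries, changes of such genes are likely to be understated. In bulk RNA, fewer cells of a type and less RNA per cell cannot be told apart. The labelled fates were checked with marker genes. Of 8 astrocyte markers 8, 7 and 7 were higher in astrocytes of the tdTomato, EYFP and hippocampal lines, and none was lower. Gfap, the astrocyte intermediate filament gene, had NSC means of 9.06, 9.31 and 9.27 and astrocyte means of 15.15, 15.67 and 16.40 in the same order of lines. Of 6 NSC markers, 4, 4 and 3 were lower and 2, 2 and 1 higher in astrocytes of these lines. Mki67, a proliferation gene, fell to between 6.54 and 6.91, whereas Sox2, a transcription factor of NSCs and astrocytes, rose by 1.35, 0.88 and 0.95. The NSC intermediate filament gene Nes was at 11.09 and 10.86 in traced astrocytes but at 13.64 in hippocampal astrocytes. The summed linear level of 6 NSC markers was 16480 to 19170 in traced astrocytes against 26490 to 29820 in hippocampal astrocytes. That sum includes Nes, which makes up most of the gap, so it shows no difference of the other NSC markers. The summed level of the 8 astrocyte markers was also higher in hippocampal astrocytes, 231000 to 259100 against 155000 to 211100. Whether these marker levels have a part in the differences between lines described below was not tested.

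Promoters were examined because the subunit genes are known targets of shared activators such as NRF1 and the ETS factor GABP. RefSeq promoter sequences (GRCm38.p6, 250 bases before to 50 bases after the start site) were found for 76 of the 92 members, which gave 81 promoters. Counting both strands, the NRF1 core GCATGCGC was in 14.8% of member promoters against 3.52% of all 21263 promoters, the ETS core CCGGAAG in 22.2% against 11.6%, the ERR motif AAGGTCA in 9.88% against 4.08% and the YY1 core AAGATGGC in 13.6% against 3.05%. The TATA box TATAAA, added after the sequences had been read, was in 9.88% of member promoters against 12.6% of all. These promoters are printed because their genes show the contrasts of the results: Cox8b and Cox8a encode alternative forms of the same subunit and moved very differently, whereas Uqcrc1 and Cox6b1, chosen after their values and sequences were seen, rose in both traced lines and fell in the hippocampal line. All are written 5′ to 3′ in the direction of transcription, and capitals mark matches to the motifs. The Cox8b promoter (chr7:140900397-140900696, minus strand) held TATAAA from base 255. The Cox8a promoter (chr19:7217567-7217866, minus strand) held the reverse complement of the ETS core from bases 246 and 283. The Uqcrc1 promoter (chr9:108936398-108936697, plus strand) held the NRF1 core on both strands, from bases 281 and 283, in matches that overlap. The Cox6b1 promoter (chr7:30626065-30626364, minus strand) held the reverse complement of the ETS core from base 223. These matches describe the sequence and are not evidence of binding.
Cox8b: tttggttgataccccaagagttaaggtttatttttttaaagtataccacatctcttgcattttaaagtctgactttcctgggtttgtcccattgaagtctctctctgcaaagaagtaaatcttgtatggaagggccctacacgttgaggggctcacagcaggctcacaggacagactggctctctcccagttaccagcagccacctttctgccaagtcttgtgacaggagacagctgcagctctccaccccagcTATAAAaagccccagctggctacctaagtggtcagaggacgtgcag
Cox8a: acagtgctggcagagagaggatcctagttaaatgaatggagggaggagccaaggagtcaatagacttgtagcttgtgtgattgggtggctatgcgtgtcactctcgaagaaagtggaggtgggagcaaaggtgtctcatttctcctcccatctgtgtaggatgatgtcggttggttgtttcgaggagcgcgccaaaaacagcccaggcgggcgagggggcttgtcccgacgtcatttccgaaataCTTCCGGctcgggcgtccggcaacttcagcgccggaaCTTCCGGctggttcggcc
Uqcrc1: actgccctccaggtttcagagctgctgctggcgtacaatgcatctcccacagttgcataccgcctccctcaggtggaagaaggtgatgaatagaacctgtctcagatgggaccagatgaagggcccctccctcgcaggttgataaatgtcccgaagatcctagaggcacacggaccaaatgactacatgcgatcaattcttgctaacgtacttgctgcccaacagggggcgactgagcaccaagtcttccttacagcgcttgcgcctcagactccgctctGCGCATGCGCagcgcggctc
Cox6b1: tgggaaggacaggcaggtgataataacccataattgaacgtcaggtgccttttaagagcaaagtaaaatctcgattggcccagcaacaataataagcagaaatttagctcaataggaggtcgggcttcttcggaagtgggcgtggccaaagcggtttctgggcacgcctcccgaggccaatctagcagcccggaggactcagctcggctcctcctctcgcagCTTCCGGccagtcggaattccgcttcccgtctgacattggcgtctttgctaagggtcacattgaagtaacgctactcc

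The first question was how the respiratory chain genes changed as NSCs became astrocytes. In the traced lines most called members rose slightly, whereas in the hippocampal line most fell. Of 88 tested members, 35 were higher and 17 lower in tdTomato astrocytes, 41 higher and 15 lower in EYFP astrocytes, and 9 higher and 64 lower in hippocampal astrocytes (limma, Benjamini-Hochberg adjusted p below 0.05). Over all 15448 genes tested, 39.9% were higher and 38.5% lower in the tdTomato line, 38.2% and 37% in the EYFP line, and 39% and 37.3% in the hippocampal line. The members that rose were thus 39.8%, 46.6% and 10.2%, and those that fell 19.3%, 17% and 72.7%. Median changes of the members were 0.06 (tdTomato), 0.09 (EYFP) and -0.29 (hippocampal), against 0.01 to 0.02 over all genes. The 76 common subunits, which were over the filter in every library, had 30 higher and 11 lower, 36 and 11, and 5 and 58. Their medians correspond to 4.61% higher, 6.22% higher and 18% lower expression. The split in the tdTomato line moved with the scaling of the libraries. With median centring it was 51 higher and 13 lower (58% and 14.8%), against 44.2% and 34.4% of all genes, and the median was 0.15 for members and 0.10 for all genes.

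**Figure D1:**
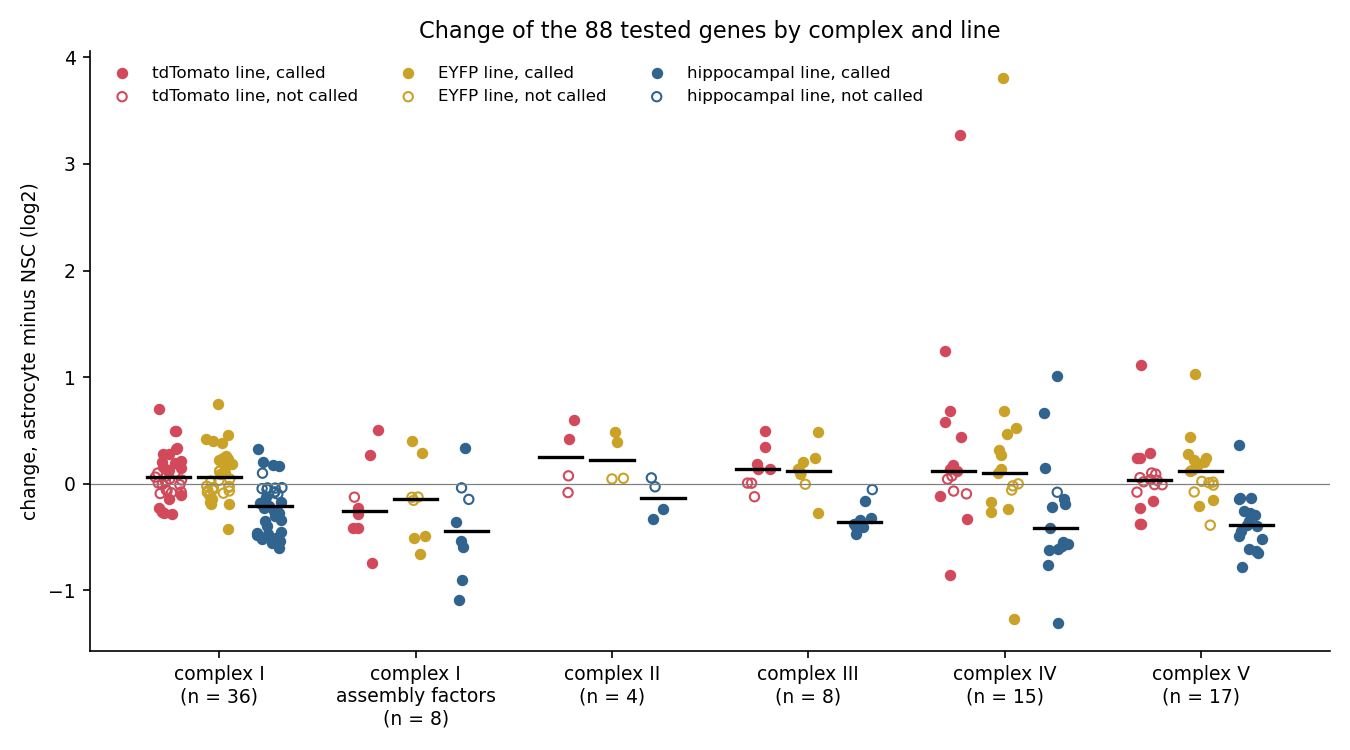
Change of each of the 88 tested genes (astrocyte minus NSC, log2) by complex, in the tdTomato, EYFP and hippocampal lines. Filled points passed the test, open points did not, and bars are medians; in every complex the hippocampal median lies below both traced medians, and the 2 highest points are Cox8b.

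The mean log2 value of the 76 common subunits shows the same split. It was 11.05 ± 0.012, 10.98 ± 0.016 and 11.06 ± 0.027 (SD, n = 3) in tdTomato, EYFP and hippocampal NSCs, and 11.14 ± 0.047, 11.07 ± 0.041 and 10.78 ± 0.064 in the respective astrocytes. All 92 nuclear members together made up 1.186% to 1.193% of the summed linear values in tdTomato NSCs and 1.185% to 1.29% in tdTomato astrocytes, ranges that overlap. In the EYFP line the share was 1.096% to 1.143% in NSCs and 1.114% to 1.175% in astrocytes, which overlap as well. In the hippocampal line it went from 1.207% to 1.248% in NSCs to 0.855% to 0.913% in astrocytes, with no overlap. Hippocampal NSCs thus had the highest share of the NSC groups and hippocampal astrocytes the lowest of all groups.

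**Figure D2:**
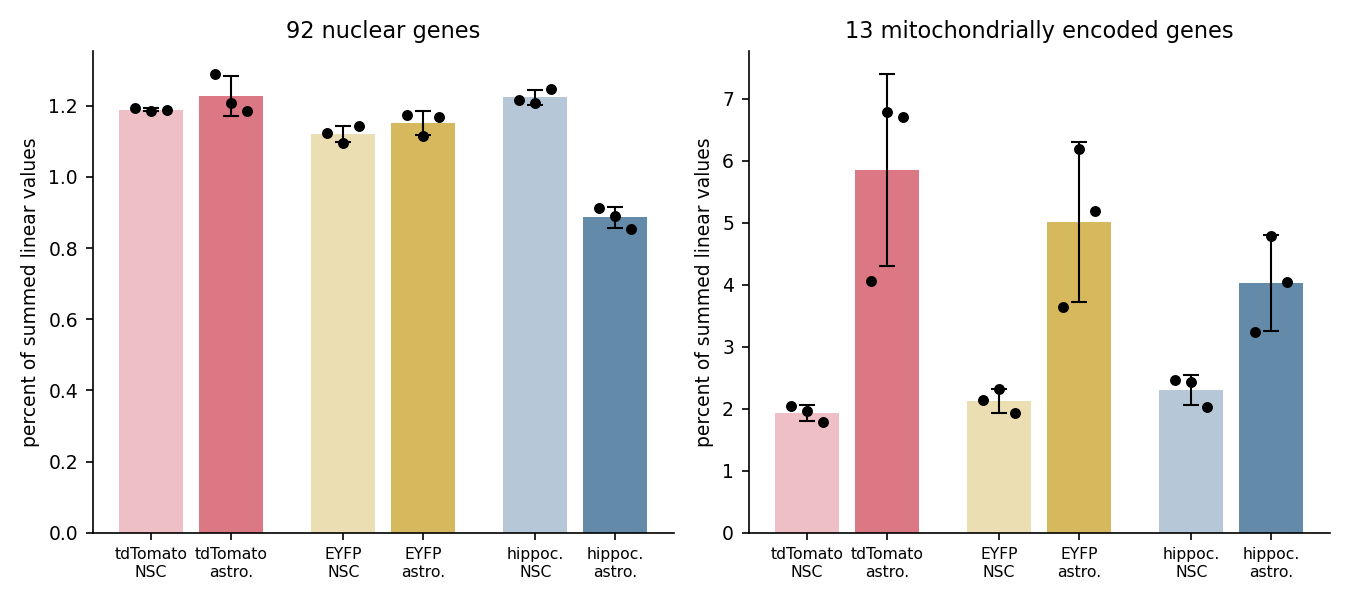
Percentage of the summed linear values taken by the 92 nuclear members (left) and the 13 mitochondrially encoded subunit genes (right). Points are libraries, bars group means and whiskers SD (n = 3); the nuclear share is lowest in hippocampal astrocytes (0.855% to 0.913%), while the mitochondrially encoded share is higher in the astrocytes of every line.

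Complex I, the NADH dehydrogenase, had 14 of 36 subunit genes higher and 6 lower in the tdTomato line, 15 and 5 in the EYFP line, and 4 and 23 in the hippocampal line. Among its 7 core subunits, which carry the flavin and iron-sulphur clusters, 6 fell and none rose in the hippocampal line. Ndufs1, the largest iron-sulphur subunit (singled out after its values were seen), illustrates the opposite directions. Its values were 11.82, 11.78 and 11.76 in tdTomato NSCs and 12.24, 12.29 and 12.32 in tdTomato astrocytes, 11.89, 11.89 and 11.85 against 12.22, 12.35 and 12.33 in the EYFP line, and 11.98, 11.95 and 11.99 against 11.76, 11.71 and 11.66 in the hippocampal line. Astrocytes lay above NSCs in every traced library and below them in every hippocampal library. The changes were 0.50 (adjusted p = 1.8e-09), 0.42 (1.9e-08) and -0.26 (8.9e-06), with a standard error of 0.039 for each. The 2 complex I subunits with the largest mean rise were Ndufa11, an accessory subunit of the membrane arm, at 0.70, 0.75 and 0.18, and Ndufb10, another membrane arm subunit, at 0.50, 0.46 and 0.32, and both passed the test in all 3 lines. Ndufa11 lost its call in the hippocampal line without NSC replicate 2 or 3 or astrocyte replicate 1 or 2 of that line. The largest mean falls were in Ndufs8, a core subunit with iron-sulphur clusters (-0.29, -0.43 and -0.60, called in every line), and Ndufab1, the mitochondrial acyl carrier protein (-0.27, -0.11 and -0.54). Ndufab1 was not called in the EYFP line, but was with its pseudogenes added (adjusted p = 0.0091) and without any of 3 single libraries (0.023 to 0.045).

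The complex I assembly factors build the complex but are not part of it. Their median changes were -0.26, -0.14 and -0.45, with 5, 3 and 5 of 8 lower and 2, 2 and 1 higher. Ndufaf4 was at 9.36, 9.27 and 9.42 in tdTomato NSCs and 8.77 to 9.02 in tdTomato astrocytes, and at 9.33, 9.37 and 9.28 against 8.26, 8.28 and 8.15 in the hippocampal line. Groups did not overlap in either line, and the hippocampal fall was the larger (-0.42 against -1.10; -0.51 in the EYFP line). Ndufaf6 fell in all lines as well (-0.74, -0.50 and -0.90). In the other direction, Ndufaf1, a factor for the membrane arm, rose by 0.50, 0.40 and 0.33, and Ndufaf7, a methyltransferase that modifies a core subunit, changed by 0.26, 0.29 and -0.04, the last not called.

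Complex II, succinate dehydrogenase, also works in the citric acid cycle. Sdha, its flavoprotein with the succinate site, was at 13.15, 13.14 and 13.12 in tdTomato NSCs and 13.76, 13.72 and 13.72 in tdTomato astrocytes, and at 13.17, 13.15 and 13.17 against 13.61, 13.66 and 13.68 in the EYFP line. In the hippocampal line NSCs had 13.29, 13.25 and 13.29 and astrocytes 13.39, 13.30 and 13.31. All traced astrocyte libraries were thus well above their NSCs, whereas the hippocampal astrocytes lay just above theirs. The changes were 0.60 (SE 0.035, adjusted p = 2.7e-11), 0.49 (5.5e-10) and 0.05 (0.16). Sdhc, a membrane anchor, behaved alike, with 0.42, 0.39 and -0.03. The iron-sulphur subunit Sdhb (0.07, 0.05 and -0.24) and the second anchor Sdhd (-0.08, 0.04 and -0.33) were called in the hippocampal line, as lower, and in neither traced line, although Sdhb was called higher in the tdTomato line with median centring (0.16, 0.0074).

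Complex III, the cytochrome bc1 complex, had 5 of 8 genes higher and none lower in the tdTomato line, 5 higher and 1 lower in the EYFP line, and none higher and 7 lower in the hippocampal line. Uqcr11, a small accessory subunit, rose by 0.50 and 0.48 in the traced lines and did not pass the test in the hippocampal line (-0.06, adjusted p = 0.25). Uqcrc1, a core protein of the matrix side whose promoter is shown above (gene at chr9:108936633-108949623), changed by 0.35, 0.25 and -0.17, all called. Uqcrq, the ubiquinone-binding subunit, was at -0.12, -0.28 and -0.32. In the tdTomato line it was not called, but was with only the groups compared (adjusted p = 0.034) and without any of 4 single libraries (0.036 to 0.047). The Rieske iron-sulphur protein gene Uqcrfs1 differed by 0.01 and -0.01 in the traced lines (0.09 in the tdTomato line with median centring, adjusted p = 0.047), and fell by 0.38 in the hippocampal line (1.8e-07).

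Complex IV, cytochrome c oxidase, contains common and tissue-restricted forms of its subunits. Of 12 common forms 6 were higher and 2 lower in the tdTomato line, 6 and 3 in the EYFP line, and 1 and 10 in the hippocampal line. Over all 15 tested complex IV genes the counts were 8 and 3, 8 and 4, and 3 and 11, and the medians 0.12, 0.10 and -0.41. Cox6c, a small subunit of the inner membrane, had 11.31, 11.23 and 11.20 in tdTomato NSCs against 11.93, 11.95 and 11.90 in astrocytes, 11.21, 11.17 and 11.22 against 11.68, 11.73 and 11.60 in the EYFP line, and 11.32, 11.28 and 11.28 against 11.19, 11.10 and 11.00 in the hippocampal line. No pair of groups overlapped, and the changes of 0.68, 0.47 and -0.20 (adjusted p = 2.1e-10, 3.8e-08 and 0.00088) were in opposite directions. Cox5a, a matrix-side subunit, fell in all lines (-0.33, -0.27 and -0.76). Cox4i1, the common form of the largest nuclear subunit (named after its values were seen), rose in all lines (0.58, 0.52 and 0.15), with the hippocampal call lost with quantile normalization (0.07, adjusted p = 0.24) and without hippocampal NSC replicate 1 (0.05). Its hypoxia-induced counterpart Cox4i2 stayed under the filter in all 18 libraries.

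Complex V, ATP synthase, had 4 of 17 genes higher and 3 lower in the tdTomato line, 9 and 2 in the EYFP line, and 1 and 16 in the hippocampal line. In the hippocampal line all 5 subunits of the F1 head and all 11 stalk and membrane subunits fell, although the call of Atp5g2 was lost without hippocampal astrocyte replicate 3 (-0.78 to -0.53, adjusted p = 0.058) and that of Atp5l (-0.13) without any of 4 single hippocampal libraries (0.053 to 0.13). Atp5b, the catalytic beta subunit (singled out after its values were seen), was at 15.16, 15.12 and 15.19 in hippocampal NSCs and 14.58, 14.55 and 14.40 in hippocampal astrocytes, while tdTomato libraries ranged from 15.10 to 15.15 in NSCs and 15.14 to 15.21 in astrocytes. EYFP libraries were at 14.99, 14.97 and 15.04 in NSCs and 15.03, 14.99 and 15.04 in astrocytes. The traced groups overlapped and the hippocampal groups were far apart, with changes of 0.04 (adjusted p = 0.51), 0.02 (0.71) and -0.65 (1.6e-09). The traced values turned with the scaling: with quantile normalization Atp5b was lower in both traced lines (-0.44 and -0.38, adjusted p = 1.1e-06 and 8.4e-06; -1.06 in the hippocampal line), and with median centring it was higher in the tdTomato line (0.12, 0.028). Atp5j, a stalk subunit, rose in the traced lines (0.29 and 0.43) and fell in the hippocampal line (-0.13). Atp5e, the smallest F1 subunit, had -0.38, -0.15 and -0.49, and its EYFP call was lost under 4 of the settings that kept all libraries and without any of 5 single EYFP libraries. The exception among complex V genes was Atp5s, which encodes factor B, a protein that couples the head to the membrane part. It rose by 1.12 (SE 0.13, adjusted p = 3.5e-07) and 1.03 (1e-06) in the traced lines and by 0.37 (0.017) in the hippocampal line, where the call was lost with quantile normalization and without hippocampal NSC replicate 3 or astrocyte replicate 2.

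Members called in several lines were compared with all 15448 genes tested. Gene by gene, 8 members rose in all 3 lines (Atp5s, Cox4i1, Cox8b, Ndufa11, Ndufa3, Ndufa4l2, Ndufaf1 and Ndufb10) and 11 fell in all 3 (Atp5c1, Atp5e, Cox5a, Cox6b2, Cox7a2l, Ndufaf3, Ndufaf4, Ndufaf6, Ndufs4, Ndufs6 and Ndufs8). Cox8b, Ndufa4l2 and Cox6b2 passed the filter on low values mainly through the fate in which they were higher, and their place in these lists is not independent of it. These were 9.09% and 12.5% of the members, against 28.1% and 27.8% of all genes. Both traced lines shared 30 members that rose (34.1%, against 34.2% of all genes) and 11 that fell (12.5% against 33.1%). In 14 members (15.9%, against 1.16% of all genes) the directions were opposite, with a rise in both traced lines and a fall in the hippocampal line: Atp5h, Atp5j, Atp5o, Cox6b1, Cox6c, Cox7b, Ndufa10, Ndufb11, Ndufc2, Ndufs1, Ndufv1, Uqcr10, Uqcrc1 and Uqcrc2. They come from complexes I, III, IV and V. Their number ranged from 10 (without EYFP astrocyte replicate 3) to 21 (median centring) over the alternatives. The 6 members called in no line were Ndufa2, Ndufa6, Ndufaf8, Ndufb3, Ndufs7 and Ndufv3. Calls near the threshold were less firm. In every alternative that tested them, 3 of the 8 (Ndufa3, Ndufaf1 and Ndufb10), 8 of the 11 (all but Atp5e, Cox7a2l and Ndufs6) and 7 of the 14 (Atp5h, Atp5j, Atp5o, Cox6c, Cox7b, Ndufs1 and Uqcrc1) kept all their calls. The number rising in all lines was 4 with quantile normalization. Of the 6 members called in no line, all but Ndufv3 were called in some line under at least 1 alternative. The call of Cox6b1 in the EYFP line (0.10, adjusted p = 0.042) was lost under 4 of the settings that kept all libraries and without any of 5 single EYFP libraries (0.057 to 0.18), that in the tdTomato line (0.12, 0.015) without astrocyte replicate 1, and that of Cox7a2l in the tdTomato line (-0.12, 0.011) with median centring or without tdTomato NSC replicate 1.

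Some further members, outside the rule for named genes and picked after their values were seen, showed how far the lines diverged within a module. They are not all of the remaining members, and several that diverged little are left out. Among the core subunits of complex I, Ndufs3 was at 0.20, 0.10 and -0.26. In the EYFP line it was not called, but was with median centring (0.15, adjusted p = 0.0057) or quantile normalization (0.12, 0.018). It was also called there with the replicate block (0.049) and without tdTomato astrocyte replicate 1 (0.041). Ndufv2, which passes electrons on from the flavin site, was at -0.09, -0.17 and -0.56. Of the accessory subunits, Ndufa13 (0.28, 0.24 and -0.04), Ndufa9 (0.28, 0.26 and 0.10) and Ndufb7 (0.19, 0.20 and -0.04) rose in the traced lines and were not called in the hippocampal line, although Ndufa9 was called higher there without any of 4 single libraries (0.10 to 0.13, adjusted p = 0.02 to 0.049). Ndufb8 (-0.01, -0.07 and -0.46) and Ndufa5 (0.07, -0.06 and -0.46) were called in the hippocampal line and in neither traced line, although Ndufa5 was called higher in the tdTomato line with median centring (0.16) or quantile normalization (0.15). Ndufs4 (-0.23, -0.19 and -0.31) and Ndufs6 (-0.15, -0.14 and -0.34), which belong to the matrix arm, fell in all lines, but with median centring Ndufs6 was called in neither traced line (-0.06 and -0.08, adjusted p = 0.17 and 0.061), nor in the tdTomato line with quantile normalization (-0.08, 0.071). In complex III, Uqcr10 (0.18, 0.20 and -0.48) and the second core protein Uqcrc2 (0.14, 0.11 and -0.34) took opposite directions. In complex IV, Cox5b (0.44, 0.32 and -0.08) rose in the traced lines, Cox7b (0.17, 0.27 and -0.41) took opposite directions, and Cox7c (-0.10, -0.06 and -0.55) was called in the hippocampal line, and in the traced lines as well with its pseudogenes added (-0.10 and -0.14). In the F1 head of complex V, the alpha subunit Atp5a1 (0.03, 0.13 and -0.45) and the gamma subunit Atp5c1 (-0.17, -0.21 and -0.63) had their lowest change in the hippocampal line, like Atp5b. The Atp5a1 change turned to -0.36 and -0.14 in the traced lines with quantile normalization. In its stalk, Atp5o (0.24, 0.22 and -0.39) and Atp5h (0.24, 0.28 and -0.14) rose in the traced lines and fell in the hippocampal line, and Atp5f1 (-0.01, 0.01 and -0.28) was called in the hippocampal line alone.

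Whether the change itself differed between lines was tested as an interaction term. The change of 73 members was higher in the traced lines (mean of both) than in the hippocampal line, and that of none was lower, also at an unadjusted p below 0.05. Over all genes, 20.3% were higher and 25.9% lower. The median difference was 0.38 for members and -0.03 for all genes, and the latter turned to 0.05 with median centring and 0.03 with quantile normalization. All-gene counts turned with it, from 3131 higher and 4002 lower to 4054 and 3161, and to 3890 and 3362, while the members had 80 and 79 higher and none lower under these scalings. For common subunits, where 67 of 76 were called, it was 0.40, equivalent to a 31.8% higher ratio of astrocytes to NSCs in the traced lines. By complex, 29 of 36 complex I genes, 4 of 8 assembly factors, 4 of 4 complex II genes, 7 of 8 complex III, 13 of 15 complex IV and 16 of 17 complex V genes were called. The 2 largest differences were in Cox8b (2.88, SE 0.315, adjusted p = 8.9e-07) and Cox6c (0.77, SE 0.056, 7e-09). Cox8b entered the test mainly through astrocyte libraries, where it was higher, so its value and rank are not independent of the filter. Ndufs1 (0.72) and Atp5b (0.68) had differences of similar size, although Ndufs1 was called higher in the traced lines and Atp5b was not. Measured against each traced line separately, the hippocampal change was the lower in 84 of 88 members (95.5%, against 37.4% of all genes), the exceptions being Ndufa2, Ndufa4l2, Ndufa7 and Ndufaf3. The 15 members not called were Atp5g2, Cox6b2, Ndufa2, Ndufa4l2, Ndufa6, Ndufa7, Ndufaf1, Ndufaf3, Ndufaf6, Ndufaf8, Ndufb3, Ndufs4, Ndufs5, Ndufv3 and Uqcrq.

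**Figure D3:**
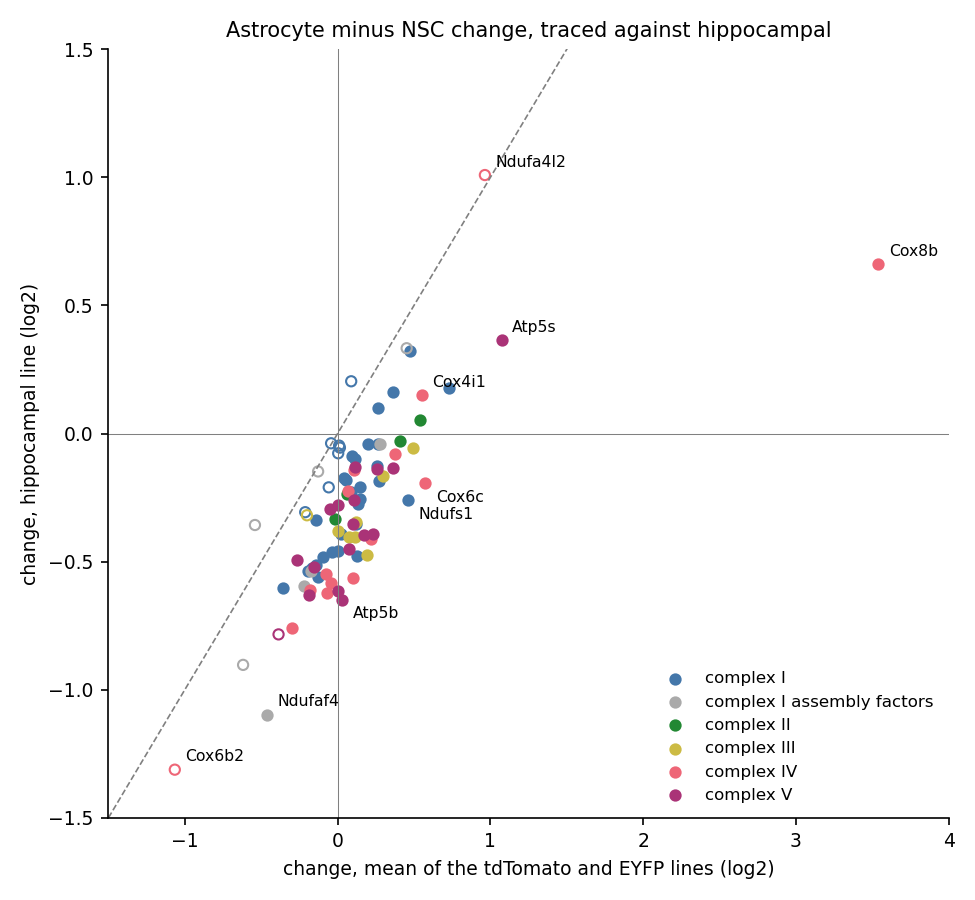
Change of each tested member in the hippocampal line (vertical axis, log2) against the mean change of the tdTomato and EYFP lines (horizontal axis, log2), coloured by complex. Filled points passed the test of the difference and lie below the dashed line of equal change; Ndufa4l2 (hippocampal change 1.01) lies near that line and Cox8b (0.66) farthest from it.

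Within a fate, the lines differed more in astrocytes than in NSCs. In NSCs, 7 members were higher and 25 lower in the traced lines than in the hippocampal line, against 17% and 14.9% of all genes, with a median of -0.08. In astrocytes 73 were higher and 1 lower, against 27.9% and 31.9% of all genes, with a median of 0.32. Common subunits were 25.1% higher in traced than in hippocampal astrocytes at the median. The NSC counts depended on single cultures: without hippocampal NSC replicate 3 only 10 members were lower, without replicate 1, 14 were lower and 4 higher, and without replicate 2, 3 were higher. With median centring the NSC split was 4 higher and 42 lower. Uqcrb, a small complex III subunit, was lower in traced NSCs (-0.22, adjusted p = 0.00019). Cox6b2 stood at -0.76, but it entered the test through hippocampal NSCs, where it was highest, so this value is not independent of the filter. Among positive differences, Ndufv1, the NADH-binding subunit, was higher by 0.17 in traced NSCs (0.0023) and by 0.55 in traced astrocytes. The single gene lower in traced astrocytes was Ndufa7, a complex I accessory subunit (-0.14, 0.039), and this call was lost under 5 of the settings that kept all libraries.

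Ndufs5, an accessory subunit of complex I (chr4:123712710-123718202), is described separately because part of its sequence also occurs in a pseudogene. It was at 10.11, 10.12 and 10.20 in tdTomato NSCs, 10.02, 10.02 and 10.01 in EYFP NSCs and only 9.06, 9.14 and 9.26 in hippocampal NSCs, and at 8.87 to 8.99 in hippocampal astrocytes against 9.89 to 10.16 in traced astrocytes. The differences of 0.93 and 1.08 (adjusted p = 2.2e-10 and 9.9e-12) were the largest among members in NSCs, and in astrocytes only Cox8b had a larger difference. Of all 75-base stretches of its exons, 15.7% also occur in BC002163, a processed pseudogene listed as a gene of its own, which had group means of 4.88 and 4.24 in traced NSCs against 8.82 in hippocampal NSCs, and of 3.54 and 4.50 against 8.56 in astrocytes. When both were added on the linear scale, traced minus hippocampal was 0.12 in NSCs (exact permutation p = 0.048, two-sided) and 0.29 in astrocytes (0.024, the smallest that 6 against 3 libraries allow). In the limma fit over all genes the NSC difference of the sum missed the threshold (adjusted p = 0.096). The size of the Ndufs5 difference between lines is therefore uncertain. Of the members, 40 share at least 1 such stretch with another gene and 17 share at least 10%. Adding the pseudogenes of all 22 members that have any in the table (an alternative chosen after seeing the data) changed 7 members by more than 0.1 in some comparison, and the number higher in traced NSCs went from 7 to 4.

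The tdTomato and EYFP lines were also compared with each other. In NSCs, 23 members were higher and 3 lower in the tdTomato than in the EYFP line, against 16.4% and 14.9% of all genes, and in astrocytes 14 were higher and none lower (28 and 3 at an unadjusted p below 0.05), against 7.06% and 7.31%. The median differences were 0.08 and 0.07. Leaving out 1 culture reduced the NSC count to as few as 12 (without tdTomato NSC replicate 3; 14 without replicate 2; 13 without EYFP NSC replicate 2) and the astrocyte count to 8 (without tdTomato astrocyte replicate 1 or EYFP astrocyte replicate 2). Among called members, the largest positive differences in NSCs were those of Ndufb6, a membrane arm subunit (0.33, adjusted p = 0.00014), and the assembly factor Ndufaf2 (0.25, 0.039, lost under 3 settings and without any of 4 single libraries, and 0.13 without EYFP NSC replicate 2), and the most negative were those of Ndufa4l2 (-0.70, 0.03, lost with no filter and without any of 4 single libraries) and Cox7a2l (-0.23, 0.00027). In astrocytes they were those of the assembly factors Ndufaf3 (0.34, 0.013, also lost without EYFP astrocyte replicate 2 or 3) and Ndufaf4 (0.32, 0.0055), and both calls were lost when the fit was limited to the groups compared. The change between fates differed in 3 members upward and 2 downward (8 and 9 at an unadjusted p below 0.05), against 6.36% and 6.98% of all genes, with a median of 0.00. With median centring the split was 4 and 1, and with quantile normalization 5 and 1.

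Several subunits exist in a common form and in forms restricted to certain tissues or conditions. Cox8b is the form of subunit VIII known from heart, skeletal muscle and brown fat, and Cox8a its common counterpart. Cox8b (ENSMUSG00000025488, chr7:140898945-140900446) had 3.02, 3.94 and 3.19 in tdTomato NSCs and 6.53, 6.53 and 6.90 in tdTomato astrocytes. In the EYFP line it had 2.95, 2.77 and 2.99 against 6.52, 6.68 and 6.93. In the hippocampal line NSCs had 2.89, 3.42 and 2.46 and astrocytes 3.45, 3.95 and 3.35. All 6 traced astrocyte libraries were thus clear of every other library, while the hippocampal groups overlapped. The rises of 3.27 (SE 0.257, adjusted p = 1.9e-09) and 3.81 (2.5e-10) correspond to ratios of 9.65 and 14.0, and the hippocampal change of 0.66 (0.027) to 1.58. Cox8b passed the filter mainly through astrocyte libraries, and most of its NSC values lay under the filter. These changes, ratios and p-values are therefore not independent of the filter and are a description. The hippocampal call was lost with no filter (0.052), a pseudocount of 10 (0.063), quantile normalization (0.23), the fit limited to the groups compared (0.064), and without hippocampal NSC replicate 1 (0.061) or 3 (0.16) or hippocampal astrocyte replicate 2 (0.13). In astrocytes Cox8b was 8.56-fold higher in the traced lines (log2 difference 3.10, adjusted p = 1.6e-09). Per length of merged exons, the linear level of Cox8b was 0.333%, 0.243% and 0.267% of that of Cox8a in NSCs of the tdTomato, EYFP and hippocampal lines, and 3.12%, 3.84% and 0.649% in astrocytes, so the common form dominated everywhere. No 75-base stretch of Cox8b occurs in another gene. Striated muscle genes did not accompany it: the summed linear level of 6 such markers (Ckm, Acta1, Myh7, Actn2, Tnnt2 and Myog) was 6.184 to 7.713 in traced astrocytes and 11.07 to 21.26 in traced NSCs, with none over the filter in any astrocyte library.

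**Figure D4:**
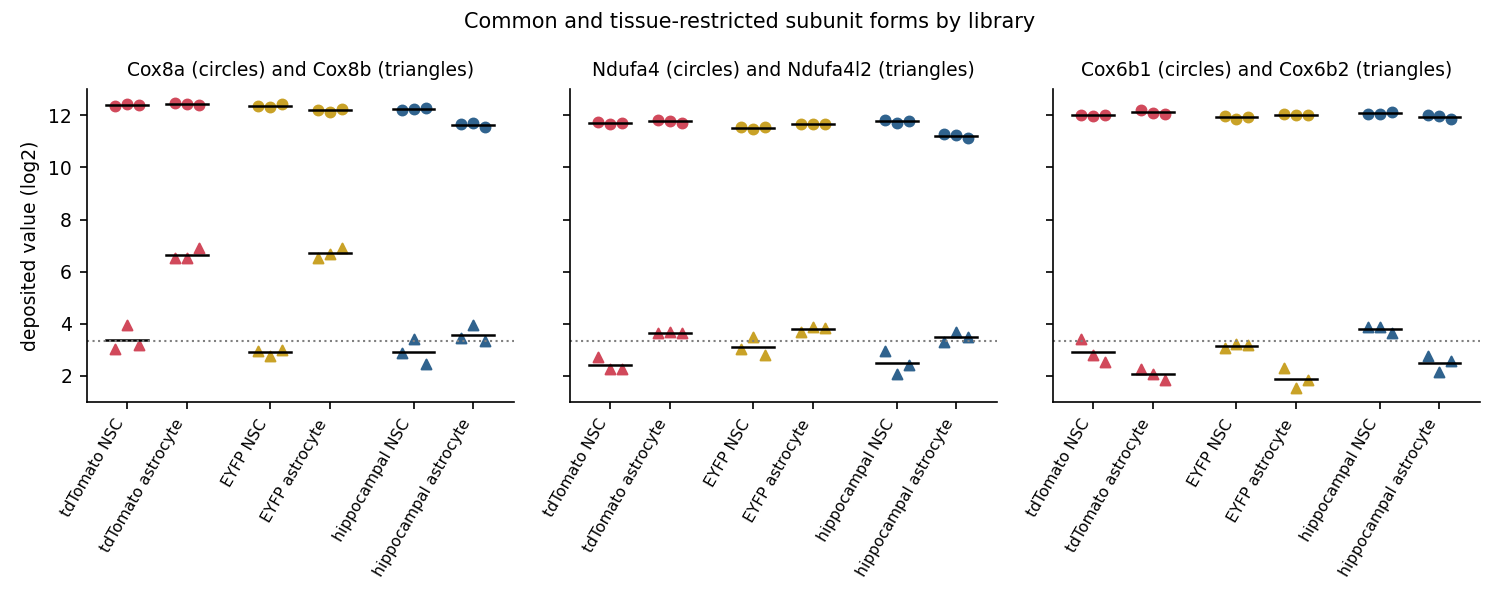
Log2 values of common subunit forms (circles) and restricted forms (triangles) in every library, with group means as bars and the expression filter of 3.32 as a dotted line. Cox8b is above 6.5 in all traced astrocyte libraries and below 4 in all others, whereas Ndufa4l2 and Cox6b2 stay between 1.53 and 3.89.

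The within-library difference between 2 forms, in which a factor common to a library cancels, was compared between 9 NSC and 9 astrocyte libraries for 7 pairs by two-sided exact permutation tests, with p-values adjusted over the 7. Within a line 3 against 3 libraries cannot reach 0.05. The restricted forms Cox8b, Ndufa4l2 and Cox6b2 entered the test through the fate in which they were higher, so their direction is not independent of the filter and their values are a description. Cox8b, over the filter in all 9 astrocyte libraries and in 2 NSC libraries, stood 2.83 higher against Cox8a in astrocytes, with 3.23, 3.98 and 1.28 in the single lines. Ndufa4l2, a hypoxia-responsive relative of the complex IV subunit Ndufa4, was over the filter in 9 libraries, nearly all of them astrocytes. It had a change of 1.25, 0.68 and 1.01 at a level of at most 3.87, and its call in the EYFP line was lost with quantile normalization (adjusted p = 0.096) and without EYFP NSC replicate 3 (0.074). Cox6b2, a form known from testis, was over the filter in 4 libraries, all of them NSCs, and changed by -0.86, -1.27 and -1.31 from values of at most 3.89. Ndufa4l2 and Cox6b2 were both below 1% of their common form per length in every group. Cox7a2l, which encodes a supercomplex factor related to subunit VIIa, differed by -0.10 against Cox7a2 (-0.05, -0.22 and -0.03 in the single lines), which did not pass the test (exact p = 0.27). The lines differ in this quantity, and when fates were exchanged only among the libraries of a line (8000 arrangements, an alternative chosen after seeing the data) it passed (exact p = 0.018, adjusted 0.021). Both genes fell in the hippocampal line.

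Subunit c of the ATP synthase ring is encoded by Atp5g1, Atp5g2 and Atp5g3, whose proteins differ only in the mitochondrial import peptide. Atp5g1 gained 0.19 on Atp5g3 (exact p = 0.00037, adjusted 0.00065), and Atp5g2 lost 0.50 against Atp5g1 (exact p = 0.0063, adjusted 0.0088). Against Atp5g3 the difference for Atp5g2 was -0.32, which missed the threshold after adjustment (exact p = 0.045, adjusted 0.052). It passed with quantile normalization (adjusted 0.01) and without any of 6 single libraries (0.0098 to 0.045), and the permutation within lines gave an adjusted exact p of 0.045. Atp5g3 itself was at -0.01 and 0.01 in the traced lines and fell by 0.62 in the hippocampal line. Atp5g2 was at 5.90 to 6.71 in group means, but its pseudogenes Gm10175 and Gm10231 had far higher values, and the sum of the 3 had group means of 11.44 to 12.33. With this sum Atp5g2 fell in the traced lines as well (-0.48 and -0.60), and the level of Atp5g2 is uncertain.

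The 13 subunits encoded by mitochondrial DNA, which are not members, moved differently from the nuclear genes. In astrocytes 12, 10 and 8 of them were higher in the tdTomato, EYFP and hippocampal lines and none was lower, with medians of 1.59, 1.19 and 0.81. Their mean log2 value went from 13.87, 13.97 and 14.04 in NSCs to 15.37, 15.07 and 14.78 in astrocytes, where the spread was also larger (SD 0.412, 0.349 and 0.232), and they took 3.241% to 6.791% of the summed values in astrocytes against 1.793% to 2.464% in NSCs. In each astrocyte group replicate 1 had the lowest share. The hippocampal line therefore combined higher mitochondrially encoded with lower nuclear subunit RNA. The interaction term was called for 3 of the 13 (mt-Nd2, mt-Atp6 and mt-Atp8, named after their values were seen), with a median of 0.59.

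Other mitochondrial gene lists were set beside the members. Of 13 citric acid cycle enzymes, 9, 9 and 1 were higher and 3, 2 and 10 lower, with medians of 0.21, 0.14 and -0.29, and the difference of change was called as higher in the traced lines for 13 of 13 (median 0.51). Cs, citrate synthase, changed by 0.16, 0.11 and -0.57. For these enzymes the pattern across lines resembled that of the respiratory chain genes. In contrast, the 80 tested mitochondrial ribosomal protein genes (symbols Mrpl and Mrps) had more lower than higher genes in every line, with 56, 48 and 57 lower and 3, 5 and 5 higher, and the difference of change was called higher for 13 and lower for 11, with a median of 0.00. Of 15 genes for cytochrome c and coenzyme Q synthesis, 4, 5 and 3 were higher and 3, 3 and 8 lower. Coq8a, a kinase-like protein needed for coenzyme Q synthesis, rose by 2.85, 3.14 and 2.31. Cyc1, the cytochrome c1 gene of complex III that the symbol rule does not take, was at -0.07, 0.00 and -0.59.

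Of 15 regulators of mitochondrial biogenesis, 3, 3 and 1 were higher and 9, 8 and 9 lower, with medians of -0.34, -0.32 and -0.34. Ppargc1a, the coactivator PGC-1alpha, rose by 1.36 and 0.97 in the traced lines and stood at -0.00 in the hippocampal line, a difference of change of 1.16 (adjusted p = 7.4e-09). Esrra, the nuclear receptor ERRalpha, changed by 0.31, 0.32 and -0.14. Nrf1 (-0.63, -0.42 and -0.36) and Tfam, the mitochondrial transcription factor (-0.44, -0.34 and -0.37), fell in all lines, as did Polg, the mitochondrial DNA polymerase (-1.25, -1.14 and -1.25). Of 31 assembly factors of complexes II to V, 13, 12 and 5 were higher and 10, 8 and 14 lower. Of 6 tested adenine nucleotide carriers and uncoupling proteins, 2, 1 and 0 were higher and 1, 2 and 3 lower. Of 19 tested hypoxia response genes, 3, 5 and 3 were higher and 10, 10 and 12 lower, with medians of -0.38, -0.26 and -0.39.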

How the data were processed

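RNA-seq libraries of 18 cultures were made from total RNA with a poly(A) mRNA kit, on whose name the labels and the study's methods differ. The submitters' processing notes name Trimmomatic 0.36, STAR 2.5.2, RSEM 1.3.0 and DESeq2 1.18.1 on GRCm38. The authors deposited 1 table of log2 normalised values; which transformation gave them is not given in the sources used here, and the table holds no counts, so that the depth behind each value cannot be recovered and no counting interval can be given (the labels state a minimum of 25 M reads per library). Member symbols, positions and shared sequence came from GENCODE mouse release 21, whereas the study's methods name Ensembl release 89 for the mapping of reads.

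Values were fitted in limma 3.58.1 (R 4.3.3) with 1 mean per group and a trend in the variance. The 15448 genes with at least 10 on the linear scale (log2 of 3.32) in at least 3 of 18 libraries were tested, and p-values were adjusted by the Benjamini-Hochberg method over all of them at a threshold of 0.05. The fit was tested on simulated data with 200 changed genes. Traced is the mean of the tdTomato and EYFP groups. Named members were both forms of each pair with a restricted form over the filter, the Sdh genes, the 2 largest mean rises and falls per complex among called genes, and the 2 most extreme called members of each comparison of lines; the text says where others were named after their values were seen. The gene lists for regulators, citric acid cycle, cytochrome c and coenzyme Q, assembly, hypoxia, carriers, mitochondrially encoded subunits and cell markers, and the members, were chosen with earlier results of these data known. The alternatives were 9 settings, 18 fits each without 1 library, the addition of pseudogenes, and for pairs a permutation within lines. Some genes that met the naming rule are not reported here.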

Additional observations from a re-analysis of the deposited data

Results flagged for a closer look

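The change from NSCs to astrocytes differed between the traced lines and the hippocampal line, by the interaction term, in 73 members that were higher in the traced lines and 0 that were lower. These were 83% and 0% of the members tested, against 20.3% and 25.9% of all genes. The 2 largest differences among the members called were 0.768 for Cox6c and 2.879 for Cox8b. The value of Cox8b is not independent of the filter, which this gene passed mainly through astrocyte libraries.

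Between the tdTomato and EYFP lines the change differed in 3 members upward and 2 downward. These were 3.41% and 2.27% of the members tested, below the 6.36% and 6.98% of all genes. Among these members, the change was higher in the tdTomato line for Cox8a (0.218) and Cox6c (0.209). It was lower there for the complex I accessory subunits Ndufb2 (-0.244) and Ndufc2 (-0.251). The calls of Cox8a and Ndufb2 were lost without any of several cultures of these lines. Groups of 3 libraries were too small for a test of outlying samples.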

How the results depend on the processing

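With quantile normalization, Atp5b (-0.438 and -0.375) and Atp5a1 (-0.355 and -0.144) changed sign in the tdTomato and EYFP lines. Of these only Atp5a1 in the EYFP line was called before (adjusted p = 0.046), and it was not called after (0.062), whereas the other 3 were called, as lower, with quantile normalization alone. No other change of sign involved a called value. Members called in each line, 73 higher in traced astrocytes and 73 with a higher change in the traced lines stayed within 1.5 times of their counts in every alternative. With median centring, traced minus hippocampal in NSCs had 4 higher and 42 lower (quantile normalization: 39 lower), and tdTomato minus EYFP NSCs had 15 higher. Traced astrocytes had 0 lower with no filter, median centring, quantile normalization or only the groups compared. With only the groups compared, tdTomato minus EYFP had 1 lower in NSCs, 6 higher in astrocytes and 1 lower difference of change. That difference had 1 higher with no filter or no trend, 5 higher with quantile normalization, and 1 lower with either scaling. With pseudogenes added, 4 members were higher in traced NSCs.

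Leaving out single libraries gave 31 to 36 higher and 15 to 20 lower in the tdTomato line, 33 to 42 and 14 to 17 in the EYFP line, and 6 to 10 and 60 to 66 in the hippocampal line. Traced minus hippocampal gave 3 to 8 and 10 to 31 in NSCs and 65 to 75 and 0 to 2 in astrocytes, with 69 to 73 and 0 for the difference of change. tdTomato minus EYFP gave 12 to 26 and 1 to 3 in NSCs, 8 to 16 and 0 to 1 in astrocytes, and 0 to 3 and 1 to 4 for the difference of change. The cause was not tested. Over the members and pairs, 7813 alternative values kept their side of the threshold, 183 lost it and 80 gained it.

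The labels give replicate numbers no shared batch. Deviations of same-numbered libraries had a mean r of 0.106 (0.012 to 0.313) between lines of a fate, all 18 above 0 but not all above 0.1, against 0.004 between lines and fates and -0.023 (-0.076 to 0.034) between fates of a line. Own numbers gave the best correlation in 31 of 36 cases, and in each line the mitochondrially encoded share was lowest in NSC replicate 3 and astrocyte replicate 1, a hint from the data and not from the design. With the replicate block, traced astrocytes had 2 lower members, and no other count moved by more than 1.5 times. No counts were available to set counting error beside the values of forms near the filter.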

Other observations

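Markers of other cell types were low or present in every group. Of 6 oligodendrocyte markers, 1 was over the filter in traced libraries, with a summed linear level of 773.3 to 1299 in traced astrocytes against 258.1 to 307.5 in hippocampal astrocytes and 89.54 to 122.9 in NSCs. The 5 microglial markers in the table summed to 63.99 to 85.32 in tdTomato NSCs and 39.33 to 61.25 in tdTomato astrocytes, against 8.312 to 11.78 and 17.08 to 25.5 in the EYFP line and 8.293 to 17.87 in the hippocampal line. Of these only Tmem119 was tested, and it was higher in the tdTomato than in the EYFP line by 3.78 in NSCs and 1.72 in astrocytes; Aif1 and Itgam had group means of at most -2.10. The part of these markers in the members' differences between the traced lines was not tested. Ependymal markers, of which 4 were in the table, summed to 700.9 to 1453 in NSCs, 2066 to 2624 in traced astrocytes and 4566 to 5131 in hippocampal astrocytes. Endothelial markers summed to at most 55.13. Of 5 tested pericyte markers, 3, 4 and 4 were higher in astrocytes of the tdTomato, EYFP and hippocampal lines and 1 was lower in each, Cspg4, which dominates the summed level of 2530 to 4395 in NSCs and 1338 to 1911 in astrocytes, and Vtn, vitronectin, was at 8.6 in hippocampal astrocytes. Neuronal markers summed to 15380 to 20720 in astrocytes and 22360 to 25110 in NSCs. Their mean log2 value went the other way, so the markers did not move together. It was 5.22, 5.34 and 5.34 in tdTomato, EYFP and hippocampal NSCs, and 5.68, 5.73 and 5.54 in the respective astrocytes.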
